A study of Homo sapiens with 5 samples.

Results

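The genes described here encode the machinery that transcribes the nuclear genome: subunits of RNA polymerases I, II and III, TATA-binding protein (TBP) and its associated factors (TAFs), Mediator, the general transcription factors, elongation and pausing factors, and Integrator. They were chosen by symbol, from the name patterns of these families, and 95 of the 6309 genes in the authors' deposited table matched. By class these were 18 polymerase subunits, 15 TAFs, 18 Mediator subunits, 18 general factors, 13 elongation factors and 13 Integrator subunits. The value for each gene is its change in translation efficiency, meaning how much of its mRNA was protected by ribosomes for the mRNA present, in HL-60 cells given decitabine against those given DMSO. HL-60 is an established human promyelocytic leukaemia cell line, labelled WT for genotype, and decitabine is a deoxycytidine analogue that traps DNA methyltransferases on DNA. Decitabine was given at 100 nM at the start and again at 24 and 48 hours, DMSO was its solvent control, and all cells were lysed at 72 hours. Listed in the labels are 2 total RNA libraries for decitabine, 2 for DMSO, and a single pool of ribosome-protected fragments (1 library). Per the labels' protocol the fragments carried barcoded linkers before they were pooled, but the pool's labels give no treatment, so how the fragments of each treatment were separated for these values was not checked here.

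RNA polymerase I makes the large ribosomal RNA precursor, polymerase II makes mRNAs and most small nuclear RNAs, and polymerase III makes transfer RNAs and the smallest ribosomal RNA. Polymerase II is brought to promoters by TBP with its TAFs (together TFIID) and by TFIIA, TFIIB, TFIIE, TFIIF and TFIIH, while Mediator links it to activators. After initiation it pauses under the control of DSIF and NELF, moves through nucleosomes with SPT6, FACT and the PAF1 complex, and can be stopped early by Integrator, which cleaves nascent RNA. Many of these proteins work in complexes of fixed composition, so the mRNAs of partner subunits are read side by side below.

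The table holds 1 model coefficient per gene with its p-value and no value for any single library, so no level per sample can be given and the depth is unknown. The coefficient is for decitabine over DMSO, and a positive one was read as higher translation efficiency with the drug. It was taken as a natural log, which its header does not state; read as log2, each fold given here lies closer to 1. The error is a standard error implied by the coefficient and its p-value, and 95% intervals are built from it. Cells were seeded in duplicate wells, but neither the labels nor the table state how the model used the duplicates, so the errors cover no more than the variation among the samples at hand. Over all genes the coefficients centred at a median of 0.09, and 65% of them lay above 0 in the authors' deposited table. The 6 granule markers of promyelocytes and neutrophils and the 4 myeloid markers that were looked up were all in the table, whereas 0 of 5 erythroid markers and 1 of 5 lymphoid markers (CD4, which monocytes also carry) were.

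No gene of this machinery differed in translation efficiency past the threshold. With the threshold set at an adjusted p of 0.05, the authors' deposited table calls 0 of 95 members, against 0.808% of all genes (0.634% higher and 0.174% lower). At an unadjusted p below 0.05, 7 members were higher with decitabine and 0 were lower in the authors' deposited table; over all genes the shares were 8.35% higher and 1.95% lower, 10.3% in all, against 7.37% of the members. The 7 were MED13L, POLR2B, INTS5, NELFA, POLR2F, INTS13 and POLR3D, and they came from 4 of the 6 classes. After subtraction of the median of all genes, 3 members were higher and 4 lower at an unadjusted p below 0.05, where 3.69% and 4.25% of all genes were. The 3 higher ones were MED13L, INTS5 and NELFA, and the 4 lower ones were POLR2L, CTR9, INTS4 and MED10.

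The members were spread much like the other genes of the table. Their median coefficient was 0.0893 with quartiles of -0.14 and 0.30, against a median of 0.0951 with quartiles of -0.08 and 0.26 for the other genes. In all, 59 members were above 0 and 36 below, or 62.1% above, where 65% of all genes were. The most extreme members were INTS5 with 0.67 and MED10 with -0.88 in the authors' deposited table. The implied standard error had a median of 0.25 among the members, the same as over all genes, and lay between 0.10 for GTF2I and 0.48 for MED10. Given these errors, the 95% interval lay within a 2-fold change in either direction for 41 members and within a 1.5-fold change for 7. For the members outside the 41 the interval reached beyond a 2-fold change; 6 of these intervals left out 0, those of MED13L, INTS5, NELFA, POLR2F, INTS13 and POLR3D, while the others held both 0 and a 2-fold change. The plot of coefficient against implied standard error shows the members inside the cloud of the other genes.

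**Figure D1:**
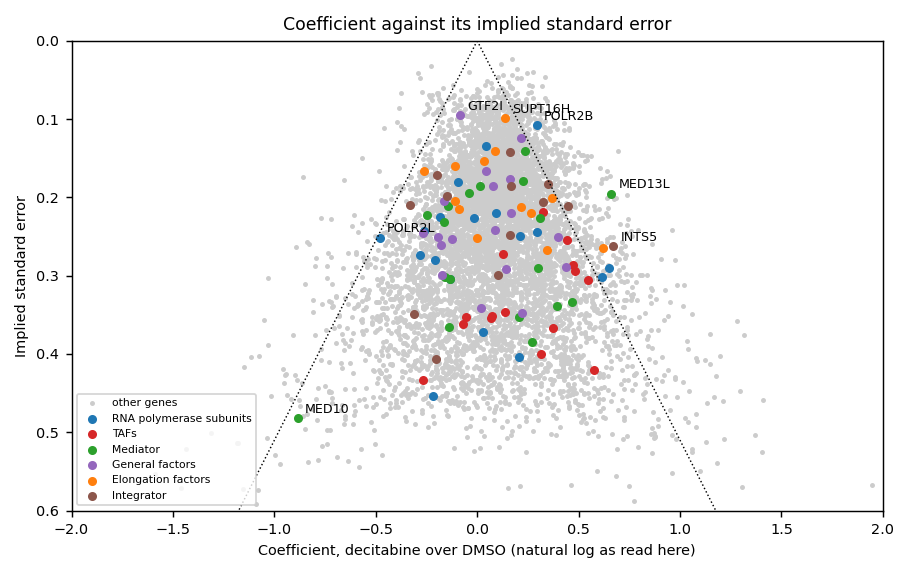
Each point is 1 gene, with its coefficient (decitabine over DMSO, natural log as read here) on the horizontal axis and its implied standard error on the vertical axis, the most precise genes at the top. Coloured points are the 95 members by class and grey points the other genes (18 lie outside the axes). Dotted lines mark where a 95% interval just touches 0. GTF2I, SUPT16H and POLR2B are the most precise members. Beyond the right-hand line lie MED13L, POLR2B, INTS5, NELFA, POLR2F, INTS13 and POLR3D.

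A run of pyrimidines at the very start of an mRNA (the TOP motif of ribosomal protein mRNAs) puts it under separate translational control, so the start of the members' transcripts was read from RefSeq (GRCh38.p14). There 77 of the 95 members had an entry and 64 had a single start entry. That start need not be the outermost one of the gene. A start was called pyrimidine-rich where the first base was C and the next 4 were each C or T. Among ribosomal protein genes with a single start site, 31 of 42 began that way, and their median coefficient was -0.14, against -0.11 for the ribosomal protein genes that did not. Over all genes of the table except the members, ribosomal protein genes included, the median was -0.02 with a pyrimidine-rich start and 0.09 without. Among the members 3 of 64 had such a start, or 4.69%, against 6.19% of the other genes of the table: GTF2F1, TAF1D and TAF9B. The following windows show these 3 starts, then the 4 members with an unadjusted p below 0.05 that had a single start, then the 4 that were lower after subtraction of the median of all genes. Each window runs 5′ to 3′ from 20 bases before the start to 10 bases into the transcript, and the capitals are the first 5 transcribed bases.
GTF2F1, chr19:6393155-6393184, minus strand: agaccgagtagcttgagcgcCTCTTccggt
TAF1D, chr11:93741486-93741515, minus strand: gggccacggaaatagccaacCCTTTtcttc
TAF9B, chrX:78139641-78139670, minus strand: aggagcccgcgagctctcctCTCTCctctg
MED13L, chr12:116277684-116277713, minus strand: agccgcggtcggcggccgccATTGCtgtca
POLR2B, chr4:56978876-56978905, plus strand: gaacgtcggagacggaagttACTTCgtctt
NELFA, chr4:2008965-2008994, minus strand: agatgccggggcagcggcgcGCGCTttccc
INTS13, chr12:26937972-26938001, minus strand: tgtgcacgcgcacgcgcgctCCTGCtctta
POLR2L, chr11:842520-842549, minus strand: gcggccgggccgggccgggcAGTCTgggac
CTR9, chr11:10751226-10751255, plus strand: ccgtccgccgtccgctgctcGTTGTttaag
INTS4, chr11:77994659-77994688, minus strand: gcctccctcctagtgtacggAAGCTgagag
MED10, chr5:6378538-6378567, minus strand: ggacggaagcaggaagcgggAGCGTagggc

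Neither the 4 higher nor the 4 lower members began with a pyrimidine run in these windows, although INTS13 opened with 3 pyrimidines. The coefficients of the 3 that did were -0.16 for GTF2F1, 0.13 for TAF1D and 0.07 for TAF9B in the authors' deposited table, all with an unadjusted p above 0.05. RefSeq starts need not be those used in HL-60 cells, and the start of the transcript that was measured was not checked. The INTS13 start shown also lies inside its RefSeq gene span, whose upstream end is at 26938332, and the sequence there was not read.

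Within 300 bases around the start (250 before, 50 after), 3 further strings were searched on both strands. TATAAA, the sequence TBP is known to bind, was in 7.81% of the 64 members' windows, in 4.79% of those of all genes of the table and in 12.7% of all single-start windows. CCGGAAG, a core of ETS factor sites, was in 40.6% of the members' windows, 25.9% of the table's and 10.7% of all. ATGGCGG, a core of YY1 sites, was in 17 members' windows or 26.6%, against 14.7% of the table's and 5.68% of all; 7 of the 17 also held CCGGAAG, and neither string contains the other. Of 11 Mediator genes 6 held ATGGCGG, and they lay on both sides of 0: MED1, MED13L and MED16 had 0.23, 0.66 and 0.47, and MED18, MED25 and MED27 had -0.16, -0.16 and -0.14 in the authors' deposited table. By class the share with ATGGCGG was lowest for TAFs (10%) and highest for Mediator (54.5%). The share with CCGGAAG was lowest for Mediator (9.09%) and highest for general factors (57.1%). These shares are descriptions that rest on few genes per class, and no test of them was made. The number of CG pairs per window, where DNA methylation can lie, had a median of 26 among members and 28 over the table; methylation was not measured in these files.

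The TAFs had the highest median, 0.32, and the polymerase subunits the lowest, 0.01. Integrator had 0.16, Mediator 0.11, the elongation factors 0.09 and the general factors 0.06. The median implied standard error was 0.35 among TAFs, the least precise class, and 0.21 for both the elongation factors and Integrator, the most precise ones. Members of a class are not replicates, and no test between the classes was made.

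**Figure D2:**
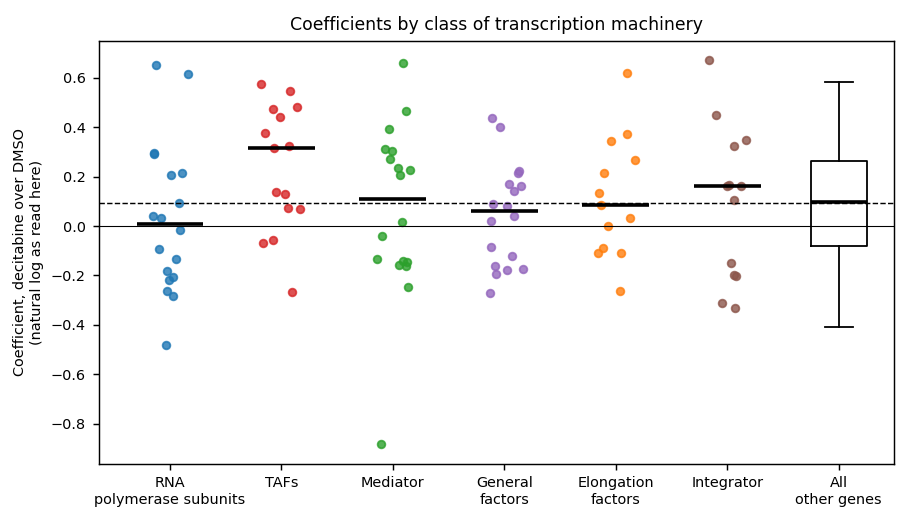
Coefficients (decitabine over DMSO, natural log as read here) of the members by class, 1 point per gene with the class median as a bar, beside a box of all other genes (median, quartiles, and whiskers at the 5th and 95th percentiles). The solid line is 0 and the dashed line the median of all genes, 0.09; the class medians run from 0.01 for polymerase subunits to 0.32 for TAFs, and every class overlaps the others.

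Among the polymerase subunits, 9 coefficients were above 0 and 9 below, where 65% of all genes were above 0. POLR2B, the second-largest subunit of polymerase II, which forms the catalytic cleft with the largest one, was the most precise of the class. Its coefficient was 0.29 ± 0.11 (implied SE, 95% interval 0.08 to 0.51) with an unadjusted p of 0.00623 and an adjusted p of 0.199 in the authors' deposited table. On a natural log scale this is 1.34 times the DMSO level, and with the median of all genes subtracted its adjusted p was 0.67. The homologous subunits of the other polymerases lay lower: POLR1B had -0.09 ± 0.18 and POLR3B -0.28 ± 0.27 (implied SE) in the authors' deposited table. POLR2B exceeded POLR3B by 0.58 (95% interval 0.001 to 1.15) and POLR1B by 0.39 (-0.02 to 0.80), pairs picked after their values were seen. POLR2A, the largest subunit, had no row in the authors' deposited table.

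The other subunits particular to polymerase II were not apart from 0. POLR2C, which forms the assembly platform with POLR2J, had -0.26 ± 0.24, and POLR2D and POLR2G, which form the stalk, had -0.22 ± 0.45 and 0.09 ± 0.22 (implied SE) in the authors' deposited table. POLR2M, known as Gdown1 and a regulator rather than a core subunit, had 0.21 ± 0.40 (implied SE) in the authors' deposited table.

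The subunits shared between polymerases held both the highest and the lowest coefficient of the class. POLR2F, a small subunit common to all 3 enzymes, had 0.65 ± 0.29 (implied SE, unadjusted p = 0.0251, adjusted p = 0.393) in the authors' deposited table. POLR2L, another small subunit common to all 3, had -0.48 ± 0.25 (implied SE, unadjusted p = 0.0563, adjusted p = 0.499) in the authors' deposited table. POLR2F exceeded POLR2L by 1.13 with a 95% interval of 0.38 to 1.88, a pair picked after their values were seen. POLR2H, also common to all 3, had 0.29 ± 0.24 (implied SE) in the authors' deposited table. POLR1C and POLR1D, which pair with each other in polymerases I and III, had 0.21 ± 0.25 and -0.21 ± 0.28 (implied SE) in the authors' deposited table.

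Polymerase I and III subunits lay around or below 0 with 1 exception. POLR1A, the largest subunit of polymerase I, had 0.04 with a 95% interval of -0.22 to 0.31 in the authors' deposited table, the only polymerase interval within a 1.5-fold change. POLR3A, the largest subunit of polymerase III, had -0.18 ± 0.23 (implied SE) in the authors' deposited table. The exception was POLR3D, a subunit of the TFIIF-like dimer of polymerase III, with 0.61 ± 0.30 (implied SE, unadjusted p = 0.0413, adjusted p = 0.455) in the authors' deposited table. POLR3C and POLR3K had -0.02 and -0.13 in the authors' deposited table, each with an interval that held 0.

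The TAFs lay mostly above 0, but none passed even without adjustment. Of 15 members 12, or 80%, were above 0 and 3 below, where 65% of all genes were above 0. Above the median of all genes were 10. The intervals of all 15 held 0, and only that of TAF1D lay within a 2-fold change. TAF1, the largest TFIID subunit and its scaffold, had 0.32 ± 0.22 (implied SE, 95% interval -0.11 to 0.75) and was the most precise TAF in the authors' deposited table. TAF2, which contacts the start site, had 0.44 ± 0.25, and TAF5, a WD-repeat scaffold of TFIID, had 0.55 ± 0.31 (implied SE) in the authors' deposited table. The highest was TAF12, a histone-fold partner of TAF4, with 0.57 ± 0.42, and the lowest was TAF4 itself with -0.27 ± 0.43 (implied SE) in the authors' deposited table. TAF11 and TAF13, which form a histone-fold pair, had 0.47 ± 0.29 and 0.07 ± 0.35 (implied SE) in the authors' deposited table, and their difference of 0.41 had an interval of -0.49 to 1.30. TAF7, which binds TAF1, had 0.38 ± 0.37 (implied SE) in the authors' deposited table. The paralogues TAF4B, TAF5L (a SAGA subunit) and TAF9B had -0.07, 0.14 and 0.07 in the authors' deposited table.

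TAF1B, TAF1C and TAF1D belong to SL1, the TBP-containing factor that recruits polymerase I, and lay above 0 as well, with 0.32 ± 0.40, 0.48 ± 0.29 and 0.13 ± 0.27 (implied SE) in the authors' deposited table. TBP itself, which SL1 and TFIID share, had -0.18 ± 0.30 (implied SE, 95% interval -0.76 to 0.41) in the authors' deposited table. TAF15, an RNA-binding protein of the FET family that is only loosely tied to TFIID, had -0.06 ± 0.35 (implied SE) in the authors' deposited table.

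Among the general factors, 11 of 18 were above 0, where 65% of all genes were. The 95% intervals of all 18 held 0. Of the 7 genes matched for TFIIA, TBP, TFIIB, TFIIE and TFIIF, 6 were below 0, with a median of -0.18, where 35% of all genes were below 0. These 7 were grouped with earlier results of these data known. GTF2A1, a TFIIA subunit, had the lowest coefficient of the class, -0.27 ± 0.25, and GTF2B, which is TFIIB, had -0.12 ± 0.25 (implied SE) in the authors' deposited table. The TFIIF subunits GTF2F1 and GTF2F2 had -0.16 ± 0.20 and -0.18 ± 0.26 (implied SE) in the authors' deposited table, a difference of 0.02 with an interval of -0.63 to 0.67. The TFIIE subunits GTF2E1 and GTF2E2 had -0.19 ± 0.25 and 0.22 ± 0.35 (implied SE) in the authors' deposited table, and GTF2E2 was the only one of the 7 above 0.

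The 3 TFIIH core subunits matched by name were all above 0. GTF2H1 had 0.40 ± 0.25, GTF2H3 0.17 ± 0.22 and GTF2H5, the smallest subunit and the highest general factor, 0.44 ± 0.29 (implied SE) in the authors' deposited table. Of the other TFIIH genes in the table, 2 were below 0 and 1 above. The helicase ERCC3 had -0.46 ± 0.28, the helicase ERCC2 -0.03 ± 0.20 and MNAT1, the assembly factor of its kinase, 0.40 ± 0.26 (implied SE) in the authors' deposited table. In all, 4 of 6 measured TFIIH genes were above 0, where 65% of all genes were.

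TFIIIC, which recognises the internal promoters of transfer RNA genes, had all 6 subunits above 0, but close to the median of all genes: their median was 0.08. They lay between 0.02 for GTF3C6 and 0.21 for GTF3C5 in the authors' deposited table. GTF3C5 was the most precise of them, with an implied SE of 0.12, an unadjusted p of 0.0842 and an adjusted p of 0.567 in the authors' deposited table. GTF3C1, the largest subunit, had 0.04 ± 0.17 (implied SE) in the authors' deposited table. GTF3A, which is TFIIIA and serves the 5S ribosomal RNA genes, had 0.14 ± 0.29 (implied SE) in the authors' deposited table. GTF2I, which encodes TFII-I, was the most precise member of all, with -0.09 ± 0.10 (implied SE, 95% interval -0.27 to 0.10) in the authors' deposited table. RefSeq names 20 pseudogenes after GTF2I, and the sources used here do not say how reads shared with them were counted, so its value is uncertain.

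**Figure D3:**
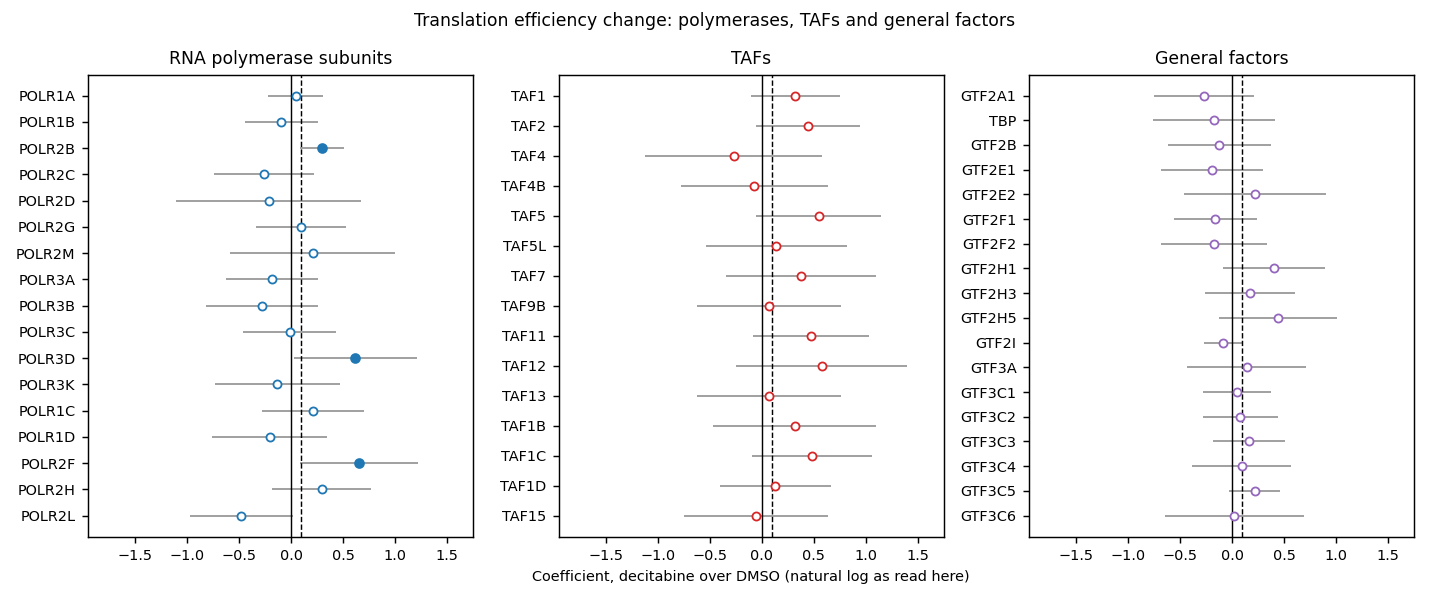
Coefficients (decitabine over DMSO, natural log as read here) with 95% intervals from the implied standard error for polymerase subunits (1 is not shown), TAFs and general factors. Filled points have an unadjusted p below 0.05 (POLR2B, POLR3D and POLR2F), the solid line is 0 and the dashed line the median of all genes. Right of 0 lie 12 of 15 TAFs, where 65% of all genes do. Left of 0 lie 6 of the first 7 general factors, where 35% of all genes do. Those 7 were grouped with earlier results known.

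Mediator held the member with the smallest p-value. MED13L, an alternative subunit of the kinase module that can replace MED13, had 0.66 ± 0.20 (implied SE, 95% interval 0.28 to 1.04, unadjusted p = 0.000715, adjusted p = 0.0672) in the authors' deposited table. This is 1.94 times the DMSO level on a natural log scale and 1.58 times on a log2 scale. At an adjusted p below 0.1 it would be the only member called, or 1.05% of the members, where 1.36% of all genes are called and 1.05% are called higher. With the median of all genes subtracted its adjusted p was 0.229. MED13L lies on chromosome 12 from 115958576 to 116277693 (GRCh38.p14).

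The other genes of the Mediator kinase module, which docks reversibly on the core complex, lay on the same side. MED13 had 0.31 ± 0.23 and MED12, which activates the kinase, had 0.24 ± 0.14 (implied SE) in the authors' deposited table. The kinases CDK8 and CDK19 had 0.36 ± 0.35 and 0.01 ± 0.37, and cyclin C (CCNC) had 0.12 ± 0.26 (implied SE) in the authors' deposited table. All 6 were above 0, where 65% of all genes were, and CDK19 lay below the median of all genes, 0.09. Only MED13L had an interval that left out 0, and the difference of MED13L and MED13 was 0.35 with an interval of -0.24 to 0.94.

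Core Mediator had members on both sides of 0. MED10, a subunit of the middle module, had the lowest coefficient of all members and the widest error, -0.88 ± 0.48 (implied SE, 95% interval -1.83 to 0.06, unadjusted p = 0.0668) in the authors' deposited table. MED1, the nuclear receptor-binding subunit, had 0.23 ± 0.18, and MED14, the backbone that joins the modules, had 0.02 ± 0.19 (implied SE) in the authors' deposited table. The middle subunits MED4 and MED26 had -0.15 ± 0.21 and 0.27 ± 0.38 (implied SE) in the authors' deposited table. Of 4 head subunits 3 were above 0, namely MED6, MED8 and MED20 with 0.39, 0.30 and 0.21, and MED18 had -0.16 in the authors' deposited table. MED27, MED28 and MED30, at the junction of head and tail, had -0.14, -0.25 and -0.13 in the authors' deposited table, with intervals that held 0. The tail subunits MED15, MED16 and MED25 had -0.04 ± 0.19, 0.47 ± 0.33 and -0.16 ± 0.23 (implied SE) in the authors' deposited table. MED15 and MED28 are uncertain for shared reads, since RefSeq names 7 and 8 pseudogenes after them.

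Of the 13 genes in the elongation class 9, or 69.2%, were above 0, where 65% of all genes were. Against the median of all genes, 6 were above and 7 below. The histone chaperone and pausing genes SUPT16H (FACT), SUPT6H (SPT6), SUPT5H and SUPT4H1 (DSIF) were all between 0.03 and 0.21 in the authors' deposited table, and 3 of the 4 intervals lay within a 1.5-fold change. SUPT16H, the second most precise member, had 0.13 ± 0.10 (implied SE, 95% interval -0.06 to 0.33) in the authors' deposited table. SSRP1, the other FACT subunit, had 0.08 ± 0.11 (implied SE) in the authors' deposited table. SUPT5H had 0.03 ± 0.15 and SUPT6H 0.09 ± 0.14 (implied SE) in the authors' deposited table.

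NELF, which holds polymerase II at the pause site, was less even. NELFA, the subunit that contacts the polymerase, had 0.62 ± 0.27 (implied SE, unadjusted p = 0.0198, adjusted p = 0.365), NELFB had 0.37 ± 0.20 (unadjusted p = 0.0654) and NELFCD had -0.11 ± 0.16 in the authors' deposited table. The PAF1 complex had 2 genes above 0 and 2 below: PAF1 with 0.34 ± 0.27 and LEO1 with 0.27 ± 0.22, against CTR9, its scaffold, with -0.26 ± 0.17 and CDC73 with -0.11 ± 0.21 (implied SE) in the authors' deposited table. With the median of all genes subtracted, CTR9 had an adjusted p of 0.583. SUPT7L and SUPT20H, which belong to the SAGA coactivator, had 0.001 ± 0.25 and -0.09 ± 0.22 (implied SE) in the authors' deposited table.

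Integrator had 8 of 13 subunits, or 61.5%, above 0, where 65% of all genes were. Among them were 2 of the 7 members with an unadjusted p below 0.05. These 2 are 15.4% of the class, where 8.35% of all genes were higher. After subtraction of the median of all genes, INTS5 was higher and INTS4 lower at that threshold. INTS5, a large structural subunit, had the highest coefficient of all members, 0.67 ± 0.26 (implied SE, 95% interval 0.16 to 1.19, unadjusted p = 0.0105, adjusted p = 0.253) in the authors' deposited table. INTS13, of the auxiliary module, had 0.45 ± 0.21 (implied SE, unadjusted p = 0.033, adjusted p = 0.42) in the authors' deposited table. INTS10, of the same module, had 0.16 ± 0.25 (implied SE) in the authors' deposited table.

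The cleavage module was split. INTS11, the endonuclease, had 0.35 ± 0.18 (implied SE, unadjusted p = 0.0568), and its partners INTS9 and INTS4 had 0.10 ± 0.30 and -0.33 ± 0.21 in the authors' deposited table. INTS11 exceeded INTS4 by 0.68 (95% interval 0.14 to 1.23) and INTS9 by 0.25 (-0.44 to 0.93), pairs picked after their values were seen. INTS4, the lowest Integrator subunit, has 2 pseudogenes named after it in RefSeq. The backbone subunits INTS1, INTS2 and INTS7 had 0.16 ± 0.14, 0.17 ± 0.19 and -0.15 ± 0.20, and INTS12, which binds INTS1, had -0.20 ± 0.41 (implied SE) in the authors' deposited table. Around the phosphatase that Integrator recruits, INTS6 had 0.32 ± 0.21, its paralogue INTS6L -0.31 ± 0.35 and INTS8 -0.20 ± 0.17 (implied SE) in the authors' deposited table. INTS5, with 0.67 ± 0.26 (implied SE), was grouped with them, so the group had 2 genes above 0 and 2 below. INTS8 was the second most precise subunit of the class after INTS1.

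**Figure D4:**
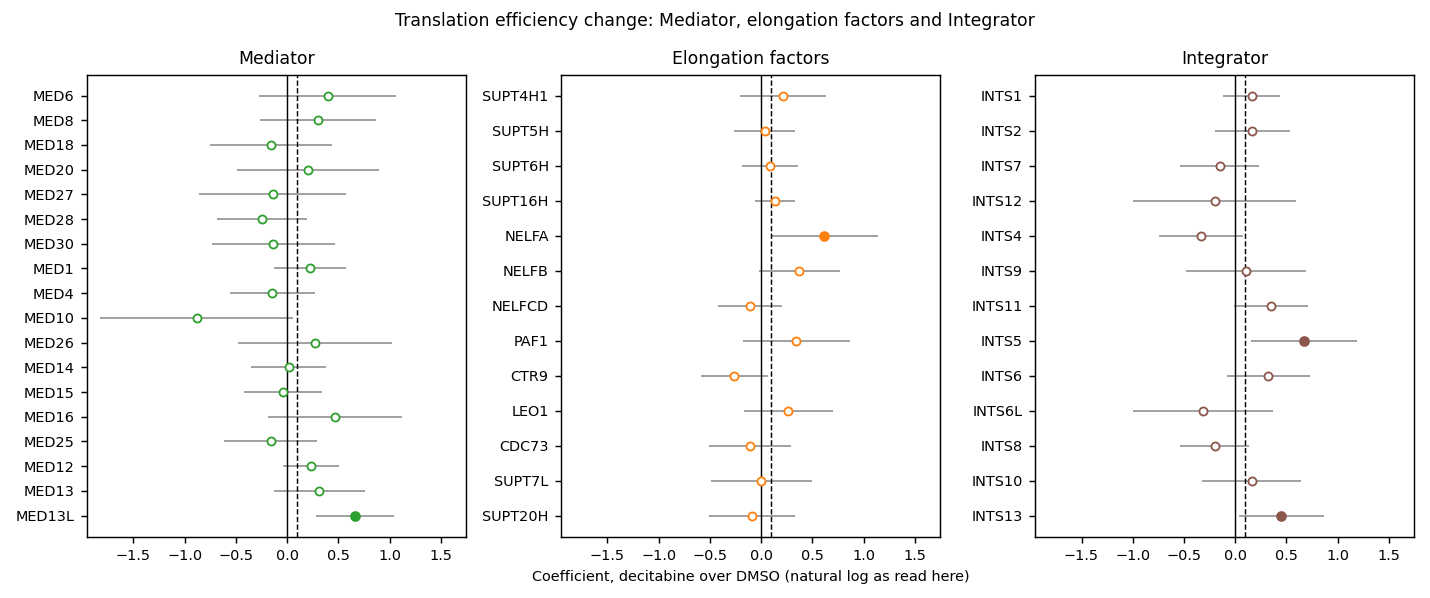
Coefficients (decitabine over DMSO, natural log as read here) with 95% intervals from the implied standard error for Mediator, elongation factors and Integrator. Filled points have an unadjusted p below 0.05 (MED13L, NELFA, INTS5 and INTS13), the solid line is 0 and the dashed line the median of all genes; the 3 kinase module genes at the foot of the Mediator panel lie right of 0, and MED10 has the widest interval.

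Partner subunits were set against each other in 16 pairs, chosen after their values were seen: 4 paralogue pairs, 4 pairs of homologous polymerase subunits, 7 pairs of binding partners and the POLR2F and POLR2L pair. The 95% interval of the difference left out 0 in 3 of the 16, namely POLR2F against POLR2L, INTS11 against INTS4 and POLR2B against POLR3B. No adjustment for the number of pairs was made, and the errors of the genes in a pair were taken as independent. For all 4 paralogue pairs the interval held 0; they are MED13L and MED13, INTS6 and INTS6L, TAF4 and TAF4B, and TAF5 and TAF5L. The widest of these was that of TAF4 and TAF4B, from -1.30 to 0.91.

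**Figure D5:**
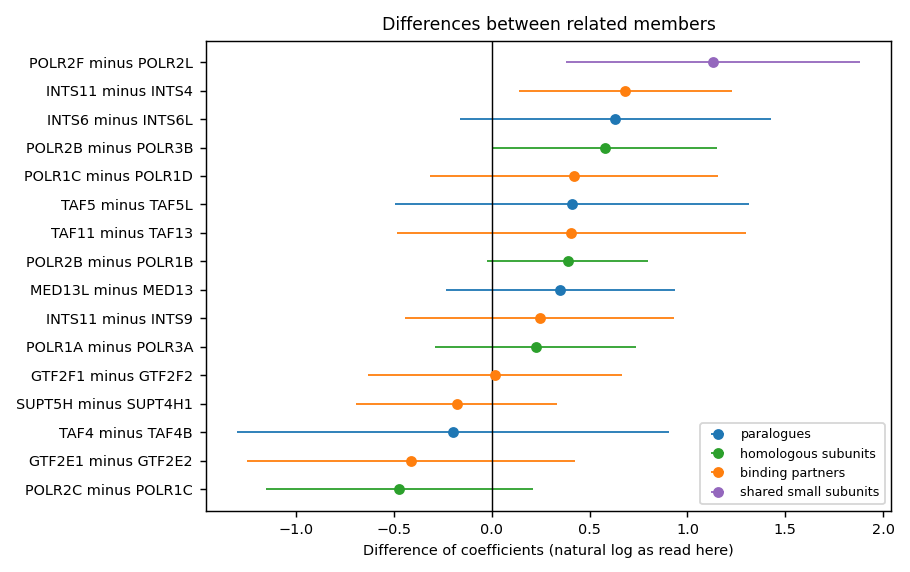
Difference between the coefficients of related members (natural log as read here, first gene minus second), with 95% intervals from the implied standard errors, coloured by the kind of pair. The intervals of POLR2F minus POLR2L, INTS11 minus INTS4 and POLR2B minus POLR3B leave out 0, the last of them by 0.001.

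Further machinery genes lie outside the name patterns. Of 61 listed genes 44 were in the table, with a median of 0.08, and the authors' deposited table calls 0 of them at an adjusted p of 0.05, where 0.808% of all genes are called. At an unadjusted p below 0.05, 3 were higher and 2 lower, where 8.35% and 1.95% of all genes were. The higher ones were SNAPC4, of the complex that starts small nuclear RNA genes, with 0.53 ± 0.24, CCNT2, a cyclin of the P-TEFb kinase, with 0.65 ± 0.32, and TCEA1, the elongation factor TFIIS, with 0.43 ± 0.19 (implied SE) in the authors' deposited table. The lower ones were both assembly factors of polymerase II: RPAP1 had -0.74 ± 0.30 (unadjusted p = 0.0141, adjusted p = 0.30) and RPAP2 had -0.80 ± 0.29 (unadjusted p = 0.0055, adjusted p = 0.191) in the authors' deposited table. RPAP3 and the GTPases GPN1, GPN2 and GPN3, which also serve polymerase assembly and import, had 0.02, 0.05, 0.17 and -0.08 in the authors' deposited table. CDK9, the P-TEFb kinase, had -0.24 ± 0.22 and its inhibitor HEXIM1 -0.44 ± 0.31 (implied SE) in the authors' deposited table. The mitochondrial polymerase POLRMT and its factors TFAM and TFB2M had 0.26, 0.18 and 0.07 in the authors' deposited table.

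The coefficients showed little relation to gene properties across the members. Over 95 genes the rank correlation of the coefficient was 0.01 with the implied standard error and -0.09 with the length of the gene span, and over 64 genes it was 0.10 with the number of CG pairs around the start. These are descriptions across genes of 1 table, which share all libraries and are not independent replicates. By position the members lie on 22 chromosomes in RefSeq. POLR2B lies on chromosome 4 from 56978896 to 57031158, POLR2L on chromosome 11 from 839721 to 842529, INTS5 on chromosome 11 from 62646848 to 62653302, and NELFA on chromosome 4 from 1982723 to 2008974 (GRCh38.p14, whole-gene spans).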

How the data were processed

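Ribosome-protected fragments and total RNA of HL-60 cells were sequenced, and the authors deposited 1 table for the comparison of decitabine with DMSO. Per the submitters' processing notes, the tools were UMI-tools 1.1.1, Bowtie2 and SAMtools 1.11, with hg38 as the build; what each did, how counts were filtered and scaled, which model was fitted and how replicates entered it is not stated there. Per the file headers, the deposited table gives for each transcript a coefficient of the drug with R's name for such a term, taken as a natural log, with a q-value, an adjusted p-value and the p-value itself. The planned count model could not be run, since the table has no counts per library.

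The deposited adjusted p-value equals a Benjamini-Hochberg adjustment across the 6309 genes to within 6.61e-14. The implied standard error is the coefficient divided by the z of its p-value, computed with Python 3.11.15 and scipy 1.17.1. Centring subtracted the median of all genes, recomputed p from that error and adjusted it over all genes. These steps were run on simulated data drawn with exactly these errors, which cannot show whether the errors hold for the real data. The members, lists, subgroups and pairs were chosen with earlier results of these data known, and no test over the members was made. Genes named are every member with an unadjusted p below 0.05, the extremes and 3 most precise members of each class and a list of core subunits; others named were chosen after their values were seen. Positions and start sequences are from RefSeq (GRCh38.p14), which held all 95 members by symbol. The value of 1 member is not reported here by itself.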

Additional observations from a re-analysis of the deposited data

How the results depend on the processing

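The count of 0 called members stayed at 0 in both directions at an adjusted p below 0.01, with the q-value, with the Benjamini-Yekutieli adjustment, after both centrings, without the least precise 25% of genes and with z divided by its robust SD of 1.09. At an adjusted p below 0.1 it became 1 higher (MED13L) and 0 lower. The 7 higher and 0 lower members at an unadjusted p below 0.05 became 3 higher and 4 lower after centring on the median or on the precision-weighted mean of all genes, since centring lowers every coefficient by 0.09, and 5 higher and 0 lower with z divided by its robust SD. The TAFs had the highest value when deposited, after both centrings (0.22 and 0.23), without the least precise genes (0.46), as a precision-weighted mean (0.27) and without members that have a named pseudogene (0.35). The polymerase subunits had the lowest median except as a precision-weighted mean, where the general factors did (0.03), and without members that have a named pseudogene, an alternative chosen after seeing the data, where the elongation factors did (0.03). The sign of the polymerase median turned after both centrings (-0.09 and -0.08) and without imprecise genes (-0.02), and those of the general and elongation factors turned after both centrings. Read as log2, the fold at the TAF median was 1.24 in place of 1.37. No paired analysis was possible because the table holds no value per library, and for the same reason no replicate could be left out.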
